A study of Mus musculus with 36 samples.

Results

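A set of 10 genes of the lipid droplet surface and of droplet lipolysis was followed in mouse liver: the perilipins Plin2, Plin3, Plin4 and Plin5, the CIDE genes Cidea, Cideb and Cidec, the lipases Pnpla2 and Lipe, and the lipase inhibitor G0s2. They were chosen by name, and all 10 were found among the 24421 genes of the count tables. The 36 libraries were bulk RNA-seq of whole liver, each from a separate male C57BL/6J mouse, obtained at 7 weeks of age, that had first received a high-fat diet that lacks choline and gives its protein as L-amino acids (CDAHFD) for 12 weeks, a diet that causes steatohepatitis. In the first experiment (HFD), another high-fat diet, with crystalline amino acids and a normal amount of choline, then replaced the CDAHFD. Over the next 2 weeks the mice received weekly subcutaneous injections of control Fc protein at 4.3 mg/kg (n = 10) or of Fc(mML1)B3 at 5 mg/kg (n = 10). In the second, mice were moved to a standard diet on the day before dosing began and, over 10 days, received the same proteins at the same doses on days 1, 4 and 7 (Fc, n = 9, Fc(mML1)B3, n = 7). Fc(mML1)B3 is an antibody Fc fragment into which a macrocyclic peptide that binds mouse Met, the receptor of hepatocyte growth factor, was grafted so that it acts as a receptor agonist, and Fc lacks this peptide. Every group thus shared the CDAHFD period and a change of diet after it, and no group of healthy liver was analysed here. Diet after that period, dosing schedule and experiment changed together and cannot be told apart.

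A lipid droplet is a core of triglyceride and cholesterol ester under a single layer of phospholipid, and the proteins on that layer decide how readily lipases reach the core. Perilipins coat the droplet, CIDE proteins promote its growth by fusion and lipid transfer, and Pnpla2 (adipose triglyceride lipase, ATGL) takes the first fatty acid from triglyceride. G0s2 binds ATGL and inhibits it, whereas Abhd5 activates it, and Lipe (hormone-sensitive lipase) cleaves the diglyceride that ATGL releases. In steatotic hepatocytes PLIN2 is the best known coat protein and is stabilised by lipid, while PLIN5 is typical of tissues that oxidise fatty acids and tethers droplets to mitochondria.

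Total counts were 14949035 to 28466853 per library (median 23558195). Values below are read counts relative to the library total (CPM), scaled over all 36 libraries by trimmed mean of M-values (TMM), and a gene is called where the Benjamini-Hochberg adjusted p of edgeR's quasi-likelihood test across all tested genes was under 0.05. Where groups are said not to overlap, the share of all tested genes without overlap was not counted, so how unusual this is cannot be told. Summed hepatocyte markers lay between 77410 and 149000 CPM, as a liver label requires. Markers of adipocytes, the cell type best known for several of these genes, summed to 0.118 to 6.06 CPM over 6 genes, of which Cfd reached 5.97 CPM. Of the other adipocyte markers, Lep was at 0 in every library, Retn, Plin1 and Ucp1 had at most 8, 4 and 3 reads, and Adipoq had at most 16 and was seen in 3 of 10 HFD Fc, 5 of 10 HFD Fc(mML1)B3, 0 of 9 standard diet Fc and 1 of 7 standard diet Fc(mML1)B3 libraries. The library names fall into 5 number series, of which the meaning is not stated. All 10 HFD Fc libraries form a series of their own and the HFD Fc(mML1)B3 libraries form 2 others (replicates 1 to 4 and 5 to 10), so number series and protein cannot be told apart under the HFD. In the second experiment Fc replicates 1 to 5 form a series, and the other 4 Fc and all 7 Fc(mML1)B3 libraries share another. A pair of HFD livers stood apart from their groups on several genes. Fc replicate 7 was the lowest of its group for Cyp2e1 (2788 CPM, group median 9269), Lipc (36.3, median 97.3), Fitm1 (2.50, median 20.5) and Ces3a (949.1, median 1882) and the highest for Lpl (500.7, median 216.6) and the macrophage marker Cd68 (127.8, median 70.6). Among the 10 genes it was the highest for G0s2 and the lowest for Plin4 and Cideb. Fc(mML1)B3 replicate 5 was the highest of its group for the cholangiocyte marker Krt19 (53.97 CPM, median 7.14), the stellate cell marker Acta2 (36.5, median 5.94) and Cd68 (108.2, median 56.4) and the lowest for Hnf4a and Ces3a. Among the 10 genes it was the lowest for Plin2, Plin5, Cideb and Cidec and the highest for Plin3. The main calls among the 10 genes that use these livers are given with and without both, as are most marker counts. Ranges, ratios, correlations and the genes that act beside these 10 are given only with both. In bulk liver, fewer cells of a type and less RNA per cell cannot be told apart.

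Of the 4 perilipins, 3 lie together on chromosome 17 of the mm10 build: Plin4 at chr17:56100591-56109802, Plin5 at chr17:56111601-56117548 and Plin3 at chr17:56278962-56290511, all on the minus strand. Plin4 ends 1798 bases from Plin5. Plin2 lies at chr4:86656565-86670059 (minus), Pnpla2 at chr7:141455188-141460743 (plus), Lipe at chr7:25379527-25395987 (minus), G0s2 at chr1:193272160-193273188 (minus), Cideb at chr14:55754055-55758424 (minus) and Cidec at chr6:113424634-113435760 (minus).

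The 250 bases upstream of the transcript start are printed for 4 genes, the coat pair Plin5 and Plin2 and the inhibitor and lipase pair G0s2 and Pnpla2, as examples of genes with and without a match, picked after their values were seen. The sequences are RefSeq's on GRCm38.p6 (the same assembly as mm10), 5′ to 3′ on the strand of the gene, and capitals mark the nuclear receptor core motif AGGTCA or its reverse complement.
Plin5, chr17:56117549-56117798: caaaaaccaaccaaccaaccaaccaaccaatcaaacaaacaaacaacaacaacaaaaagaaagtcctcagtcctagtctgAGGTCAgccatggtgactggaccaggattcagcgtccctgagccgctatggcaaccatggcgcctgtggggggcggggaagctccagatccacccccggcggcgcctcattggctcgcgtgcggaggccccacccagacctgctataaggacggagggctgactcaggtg
Plin2, chr4:86670060-86670309: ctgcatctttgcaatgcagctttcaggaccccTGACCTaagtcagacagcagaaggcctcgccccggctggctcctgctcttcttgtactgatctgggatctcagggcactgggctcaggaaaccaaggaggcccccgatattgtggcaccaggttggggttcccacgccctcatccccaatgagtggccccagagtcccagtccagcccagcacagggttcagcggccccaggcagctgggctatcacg
G0s2, chr1:193273189-193273438: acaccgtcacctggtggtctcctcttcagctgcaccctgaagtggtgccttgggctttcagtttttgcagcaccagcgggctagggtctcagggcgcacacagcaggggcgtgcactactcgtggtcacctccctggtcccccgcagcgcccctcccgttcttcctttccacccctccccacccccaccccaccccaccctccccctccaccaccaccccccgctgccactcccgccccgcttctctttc
Pnpla2, chr7:141454938-141455187: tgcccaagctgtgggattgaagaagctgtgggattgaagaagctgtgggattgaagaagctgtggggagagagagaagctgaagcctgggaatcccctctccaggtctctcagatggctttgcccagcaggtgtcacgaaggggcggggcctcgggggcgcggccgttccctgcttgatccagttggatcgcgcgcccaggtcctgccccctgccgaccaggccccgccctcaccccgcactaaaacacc

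A set of 5 motifs was searched on both strands of the 9 windows that the table held for these genes: AGGTCA, its direct repeat with a single base between the copies (DR1, which contains it), the E-box CACGTG, the D-box TTATGTAA and the glucocorticoid receptor core motif AGAACA. The motif AGGTCA ended 165 bases before the start of Plin5 and, on the opposite strand, 213 bases before that of Plin2, and 13.8% of 27025 mouse windows of the same length held it. Lipe held CACGTG, present in 6.04% of windows, and Cideb held AGAACA at 2 places, present in 16.1%. The DR1 repeat (0.037% of windows) and the D-box (0.862%) matched no window of these genes, and the windows of Plin3, Plin4, Cidec, Pnpla2 and G0s2 held none of the motifs. These matches describe letters in short windows.

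Compared per kilobase of exon, Plin2 was the most abundant of the 10 mRNAs in every group, with a mean between 172.2 and 242.4 CPM per kilobase. Over all exonic bases G0s2 came next in every group, followed by Cideb. That order depends on the length, because 855 of 1173 exonic bases of Cideb are shared with Nop9, where reads were not counted. Over the 318 bases that no other gene shares, Cideb stood above G0s2 in every group, at 150.6 against 84.4 CPM per kilobase in the HFD Fc mice and 131.4 against 43.2 in the standard diet Fc mice, and by less than the SD of G0s2 in both Fc(mML1)B3 groups. Lipe shares 809 of 3272 bases and Plin4 14 of 5755, and over unshared bases Lipe stood above Plin4 in every group. The values that follow use all exonic bases. In the HFD Fc mice Cideb, Pnpla2 and Plin3 followed each other within overlapping ranges at 40.8 ± 7.80, 34.8 ± 4.76 and 31.7 ± 4.52 CPM per kilobase (SD, n = 10). Plin5 stood below all of these at 13.99 ± 4.28 and above Cidec at 8.46 ± 4.36, again with overlap. Lipe (3.75 ± 0.936) and Plin4 (2.74 ± 1.10) overlapped at the low end. The order was the same in the other groups with 3 exceptions: Plin5 stood in place 4 among the HFD Fc(mML1)B3 mice in place of 6, Plin3 there stood above Pnpla2, and Plin4 stood above Lipe in every group but the HFD Fc mice. Among neighbours in that order the ranges of G0s2 and Plin2 overlapped in both Fc(mML1)B3 groups and in neither Fc group.

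**Figure D1:**
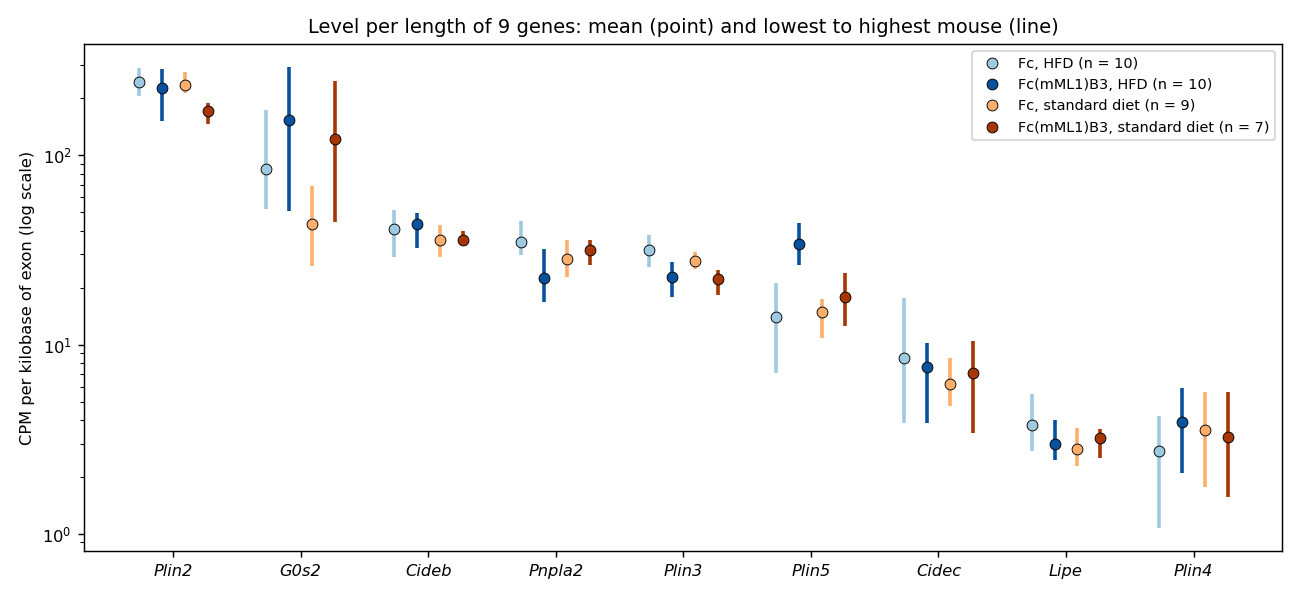
Mean level (points) and lowest to highest mouse (lines) of 9 genes in CPM per kilobase of all exonic bases (bases shared with another gene included, which lowers Cideb), on a log axis, in the 4 groups; Cidea, the lowest, is left out. Plin2 is highest in every group, and the Plin5 line of the HFD Fc(mML1)B3 mice lies wholly above the other Plin5 lines.

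Cidea, a droplet fusion factor of brown fat that steatotic liver can also express, was close to absent. It had 0 to 16 reads per library and none in 10 of the 36 libraries, so it did not pass the filter on low counts. Its libraries at 0 numbered 1 of 10 and 2 of 10 in the HFD Fc and Fc(mML1)B3 groups, and 5 of 9 and 2 of 7 under the standard diet. When the filter was left out, the adjusted p was 0.644 for Fc(mML1)B3 against Fc under the HFD, and in the second experiment it was 0.550. The only comparison that then called Cidea was standard diet against HFD among Fc mice (log2 difference -2.45, SE 0.70, adjusted p = 0.0055), on at most 6 reads per standard diet library against at most 16.

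The first comparison asked what Fc(mML1)B3 changed while the mice received the HFD. Plin5 and G0s2 were higher, Pnpla2 and Plin3 were lower, and the other 5 tested genes were not called. Thus 4 of 9 tested genes were called, where 14.8% of all 13299 tested genes were called (8.14% higher, 6.68% lower). The median log2 difference was -0.09 over the 9 genes and -0.01 over all tested genes. By the limits the study applied in this experiment (adjusted p below 0.1 and a fold above 2), which 1.34% of tested genes passed, Plin5 alone of the 9 remained. Without the 2 livers that stood apart the same 4 genes were called, Plin5 at 1.34, G0s2 at 1.08, Pnpla2 at -0.63 and Plin3 at -0.46.

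**Figure D2:**
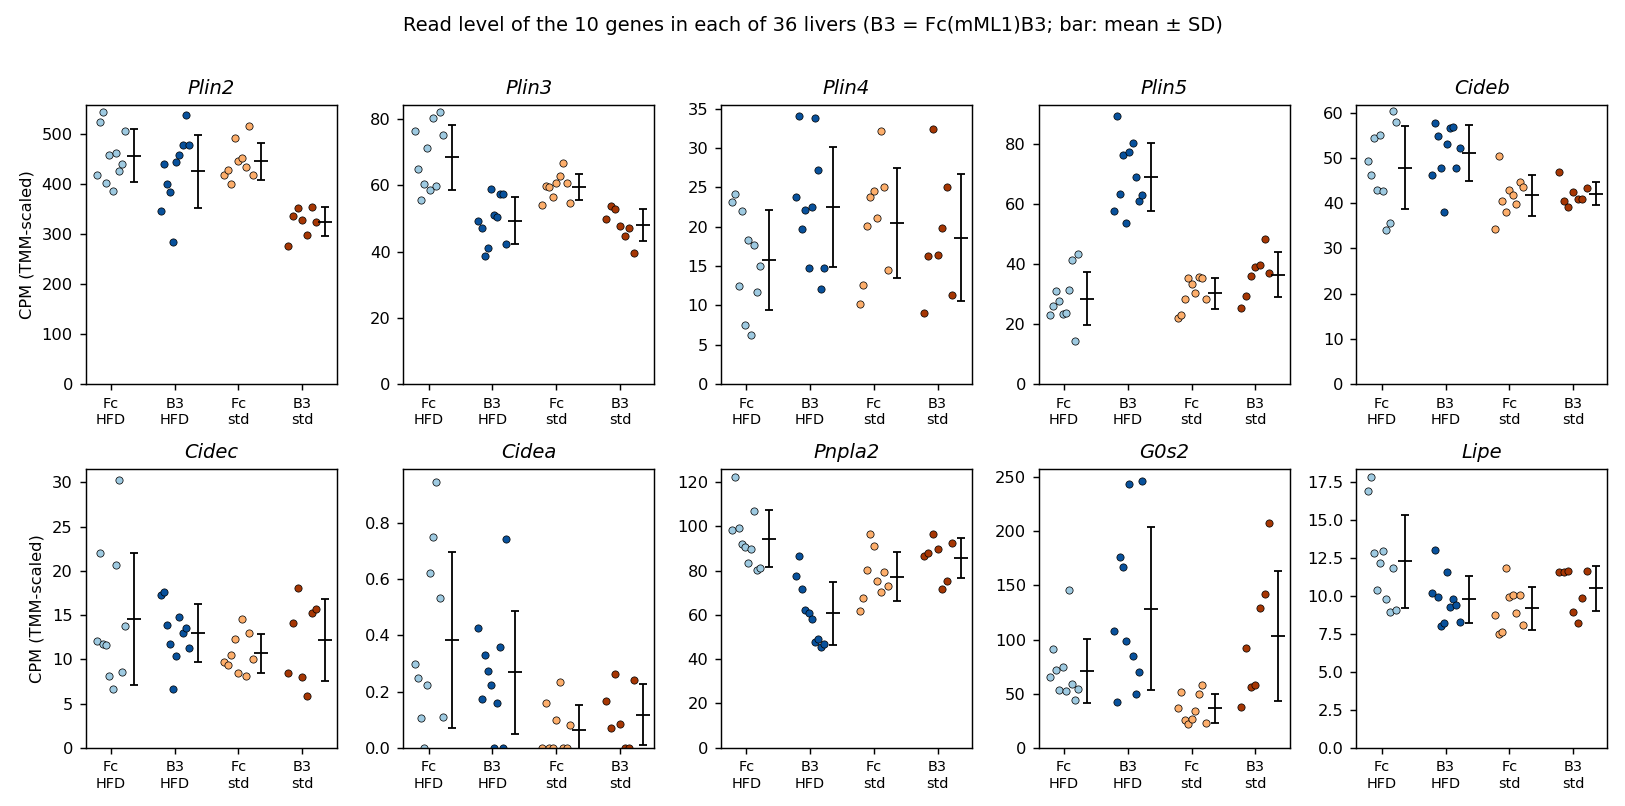
CPM of each of the 10 genes in each of the 36 livers (points), with mean ± SD beside each group, on linear axes starting at 0. Plin5 is separated between the HFD groups, Plin2 and Plin3 between the standard diet groups, and Cidea stays below 1 CPM. The share of all tested genes separated in this way was not counted.

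Plin5 showed the largest difference of the perilipins under the HFD. Its lowest, median and highest values were 14.3, 26.8 and 43.2 CPM with Fc. With Fc(mML1)B3 these were 53.7, 66.3 and 89.3 CPM. Every Fc(mML1)B3 mouse thus lay above every Fc mouse. The fitted difference was 1.29 on the log2 scale (SE 0.15, 2.45-fold, adjusted p = 4.11e-06), and each leave-one-out fit called it. Against the same Fc libraries, whose number series is separate from both, replicates 1 to 4 alone gave 1.37 and replicates 5 to 10 alone gave 1.25, so these values compare the treated series with each other but do not separate series from protein.

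Plin3, a perilipin that is soluble in the cytosol and moves onto small droplets, went the other way. With Fc it lay between 55.6 and 82.0 CPM (median 68.2). With Fc(mML1)B3 it lay between 38.6 and 58.8 CPM (median 49.9). The ranges overlapped slightly, 7 of 10 Fc(mML1)B3 mice were below every Fc mouse, and all 10 were below the Fc median. The log2 difference was -0.46 (SE 0.09, adjusted p = 0.000954).

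Plin2 did not show such a shift under the HFD. Its lowest, median and highest values were 387.2, 450.2 and 545.2 CPM with Fc and 285.5, 442.3 and 539.8 CPM with Fc(mML1)B3. The groups overlapped over most of their ranges, and the log2 difference was -0.09 (SE 0.10, adjusted p = 0.581). Per kilobase, the level of Plin5 divided by that of Plin2 in the same liver was 0.0579 ± 0.0172 in the Fc mice and 0.153 ± 0.0268 in the Fc(mML1)B3 mice (SD, n = 10 each), with no overlap. Plin4, best known from fat and muscle, was more variable, at 6.19 to 24.1 CPM (median 16.3) with Fc and 12.1 to 34.04 CPM (median 22.3) with Fc(mML1)B3. Its ranges overlapped, and its log2 difference of 0.53 (SE 0.23) had an adjusted p of 0.122.

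Pnpla2, the lipase that starts triglyceride breakdown, fell under the HFD. Its lowest, median and highest values were 80.4, 91.3 and 122.2 CPM with Fc. With Fc(mML1)B3 they were 45.7, 59.5 and 86.5 CPM. All but 1 of 10 treated livers were lower than any Fc liver, the exception being replicate 2. The log2 difference was -0.62 (SE 0.11, adjusted p = 0.000688). Within the Fc(mML1)B3 group, Pnpla2 was 62.4 to 86.5 CPM in the number series of replicates 1 to 4 and 45.7 to 61.0 CPM in that of replicates 5 to 10, without overlap. Against the same Fc mice, replicates 1 to 4 gave -0.31 (adjusted p = 0.114, not called) and replicates 5 to 10 gave -0.87 (adjusted p = 1.39e-05), by the same edgeR test.

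G0s2, the inhibitor of that lipase, spread widely. Its values were 43.9, 62.0 and 145.5 CPM (lowest, median, highest) with Fc and 42.6, 103.4 and 246.6 CPM with Fc(mML1)B3. The groups overlapped, and 4 of 10 Fc(mML1)B3 mice exceeded every Fc mouse while 1 was below all of them. The log2 difference of 0.86 (SE 0.29) passed narrowly, with an adjusted p of 0.0476. The call was lost in 14 of 20 fits that each left out 1 mouse, namely Fc replicates 1 to 6 and 8 to 10 and Fc(mML1)B3 replicates 1, 3, 4, 6 and 10, where the log2 difference was 0.715 to 0.917 and the adjusted p reached 0.106. Without Fc replicate 7, the mouse at 145.5 CPM, it was called, and without both livers that stood apart the adjusted p was 0.0115.

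Lipe, the diglyceride lipase, was 8.91 to 17.8 CPM (median 12.0) with Fc and 8.04 to 13.03 CPM (median 9.60) with Fc(mML1)B3. The groups overlapped, although 9 of 10 Fc(mML1)B3 mice were below the Fc median, and the log2 difference of -0.31 (SE 0.13) was not called (adjusted p = 0.0999). It was called without Fc(mML1)B3 replicate 2 (-0.37, adjusted p = 0.0477) and by limma-voom (-0.36, adjusted p = 0.0370). Cideb, which acts in hepatocytes on the lipid loading of very low density lipoprotein, differed by 0.11 (adjusted p = 0.500), at 34.01 to 60.4 CPM with Fc and 38.1 to 57.8 CPM with Fc(mML1)B3. Cidec, the fusion factor also called FSP27, differed by -0.14 (adjusted p = 0.727), and it ranged from 6.65 to 30.3 CPM with Fc and from 6.62 to 17.6 CPM with Fc(mML1)B3. Both CIDE genes overlapped between the groups.

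Genes of the circadian clock separated the same HFD groups. Arntl, a core activator of the clock, differed by 3.98 on the log2 scale and Dbp, a clock output gene, by -3.31, both without overlap. In a fit with the log2 ratio of Dbp to Arntl in each liver as a covariate, none of the 13299 tested genes was called by edgeR (1072 at an unadjusted p under 0.05), and the SE of each of the 9 genes rose. The Plin5 difference was 0.75 (SE 0.42, adjusted p = 0.630) and that of Plin3 was -0.49 (SE 0.27, adjusted p = 0.628), close to its value without the covariate. That of G0s2 was 0.02 (SE 0.93), that of Pnpla2 turned to 0.41 (SE 0.26, adjusted p = 0.657), and that of Plin2 moved to -0.73 (SE 0.28, adjusted p = 0.601). The protein given and the clock gene difference cannot be told apart under the HFD. Summed macrophage markers were 952.2 to 2125 CPM with Fc and 896.4 to 1889 CPM with Fc(mML1)B3 there. By edgeR 0 of 7 were called (4 of them lower at an unadjusted p under 0.05, 0 called by DESeq2 and 1 lower by limma-voom). Without the 2 livers that stood apart 4 of 7 were lower by edgeR (Lyz2, Cd68, Trem2 and Gpnmb, by -0.40 to -0.55). Of the macrophage markers not called in that fit, Clec4f (0.82, SE 0.38) and Cd5l (0.16, SE 0.29) went the other way and Adgre1 was lower (-0.25). Of 5 stellate cell markers 1 was then lower (Des, -0.56). Of 6 hepatocyte markers 1 was called, Hnf4a, higher by 0.37 (adjusted p = 0.0208) over all livers and by 0.40 without both. The part of these cell types in the HFD differences was not tested.

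The second comparison asked the same under the standard diet. G0s2 was higher and Plin2 and Plin3 were lower in the Fc(mML1)B3 mice, and 6 of the 9 tested genes were not called. All 13570 tested genes gave 16.1% called (8.56% higher, 7.55% lower). The median log2 difference was 0.15 over the 9 genes and -0.01 over all tested genes. For this experiment the study states different limits in different places. An adjusted p below 0.05 with a fold above 1.5 was passed by G0s2 alone of the 9 and by 2.36% of tested genes. An adjusted p below 0.1 with a fold above 2 was also passed by G0s2 alone, and by 0.604% of tested genes.

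Plin2 fell under the standard diet. Its lowest, median and highest values were 401.8, 435.7 and 516.4 CPM in the Fc mice. In the Fc(mML1)B3 mice they were 276.8, 328.9 and 355.4 CPM. The groups did not overlap, and the log2 difference was -0.46 (SE 0.06, adjusted p = 3.02e-05). It was called in every leave-one-out fit and among the 4 Fc and 7 Fc(mML1)B3 libraries of a single number series (-0.49, adjusted p = 0.00141).

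Plin3 also fell without overlap, from 53.9 to 66.6 CPM (median 59.7) with Fc to 39.5 to 53.8 CPM (median 47.7) with Fc(mML1)B3. The gap between the groups was narrow, and the log2 difference was -0.31 (SE 0.06, adjusted p = 0.00115). Plin3 was the only one of the 10 genes called in the same direction in both experiments apart from G0s2. Both calls of Plin3 held in each leave-one-out fit.

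G0s2 had values of 21.9, 34 and 57.8 CPM (lowest, median, highest) in the Fc mice and 37.5, 92.0 and 207.6 CPM in the Fc(mML1)B3 mice. All 7 Fc(mML1)B3 mice were above the Fc median, 4 of 7 above every Fc mouse, and the ranges overlapped. The log2 difference was 1.498 (SE 0.30, 2.82-fold, adjusted p = 0.00172). Within the single number series it was 1.32 and no longer called (adjusted p = 0.0661). Its partner Pnpla2 was 61.9 to 96.6 CPM with Fc and 71.7 to 96.4 CPM with Fc(mML1)B3, a log2 difference of 0.15 (adjusted p = 0.251).

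The level of G0s2 divided by that of Pnpla2, per kilobase, was 1.58 ± 0.686 (SD, n = 9) with Fc and 3.98 ± 2.37 (n = 7) with Fc(mML1)B3 under the standard diet. Under the HFD it was 2.43 ± 1.02 and 7.22 ± 4.76 (n = 10 each). The ranges overlapped in both experiments, with 4 of 7 and 6 of 10 Fc(mML1)B3 mice above every Fc mouse. The ratio of Plin5 to Plin2 did not overlap under the standard diet either, at 0.0626 ± 0.00863 with Fc and 0.104 ± 0.0179 with Fc(mML1)B3. It restates the calls of Plin5 under the HFD and of Plin2 under the standard diet and is not a separate result. The ratios of Plin2 to Plin3 and of G0s2 to Abhd5 were also computed and overlapped in both experiments. For Plin2 to Plin3, 9 of 10 Fc(mML1)B3 mice were above the Fc median under the HFD, and 5 of 7 were below it under the standard diet.

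**Figure D3:**
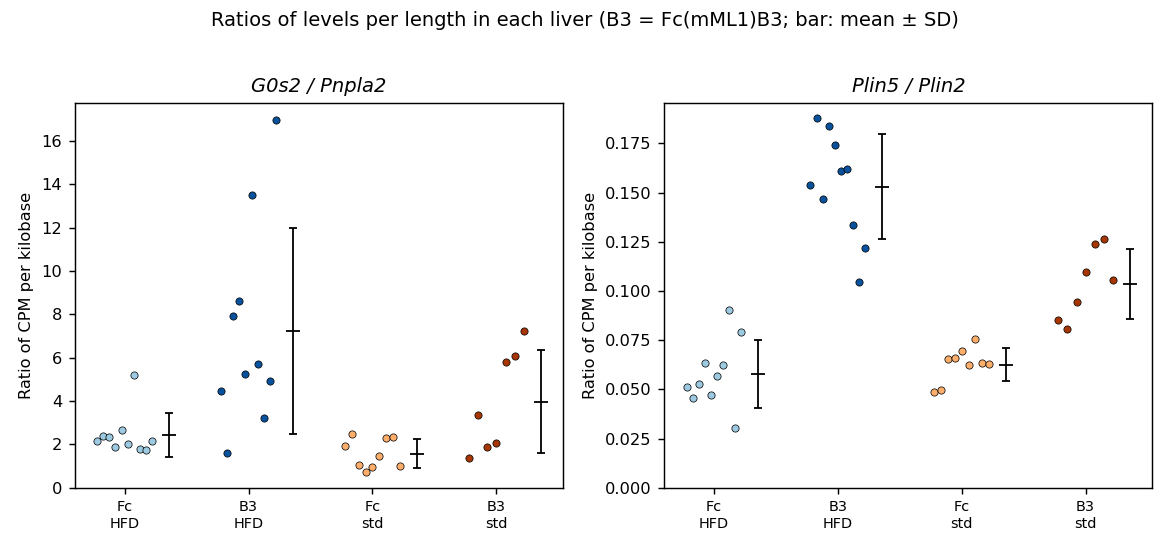
Level per kilobase of G0s2 divided by Pnpla2 (left) and of Plin5 divided by Plin2 (right) in each liver, with mean ± SD beside each group. The Plin5 to Plin2 ratio separates Fc(mML1)B3 from Fc mice in both experiments, and the G0s2 to Pnpla2 ratio overlaps.

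Plin5 was 22.1 to 35.7 CPM (median 30.5) with Fc and 25.4 to 48.5 CPM (median 37.1) with Fc(mML1)B3 under the standard diet. The groups overlapped, 5 of 7 Fc(mML1)B3 mice exceeded every Fc mouse, and the log2 difference of 0.27 (SE 0.12) was not called (adjusted p = 0.148). It was called when Fc(mML1)B3 replicate 1 was left out (0.34, adjusted p = 0.0489) and when the replicate number was fitted as a block. Plin4 (-0.14, adjusted p = 0.742), Cideb (0.01, adjusted p = 0.964), Cidec (0.19, adjusted p = 0.551) and Lipe (0.19, adjusted p = 0.226) overlapped between the groups and were not called. Of the clock genes, Arntl was lower by a log2 difference of -1.05 (adjusted p = 0.0108) and Dbp was not called (0.14, adjusted p = 0.625). With the same clock covariate, Plin2 at -0.47, Plin3 at -0.44 and G0s2 at 1.79 were still called. Summed macrophage markers were 724.6 to 1269 CPM with Fc and 726.9 to 1033 CPM with Fc(mML1)B3, and 1 of 7 markers was lower. Also lower were 1 of 5 stellate cell markers (Des by -0.36, sums of 149.3 to 204.6 and 164 to 185.1 CPM) and 1 of 4 cholangiocyte markers (Sox9 by -0.50, sums of 30.4 to 55.7 and 18.7 to 43.6 CPM). Of 6 hepatocyte markers Cyp2e1 was higher, by 0.25, and the part of these cell types in the Plin2 and Plin3 results was not tested.

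**Figure D4:**
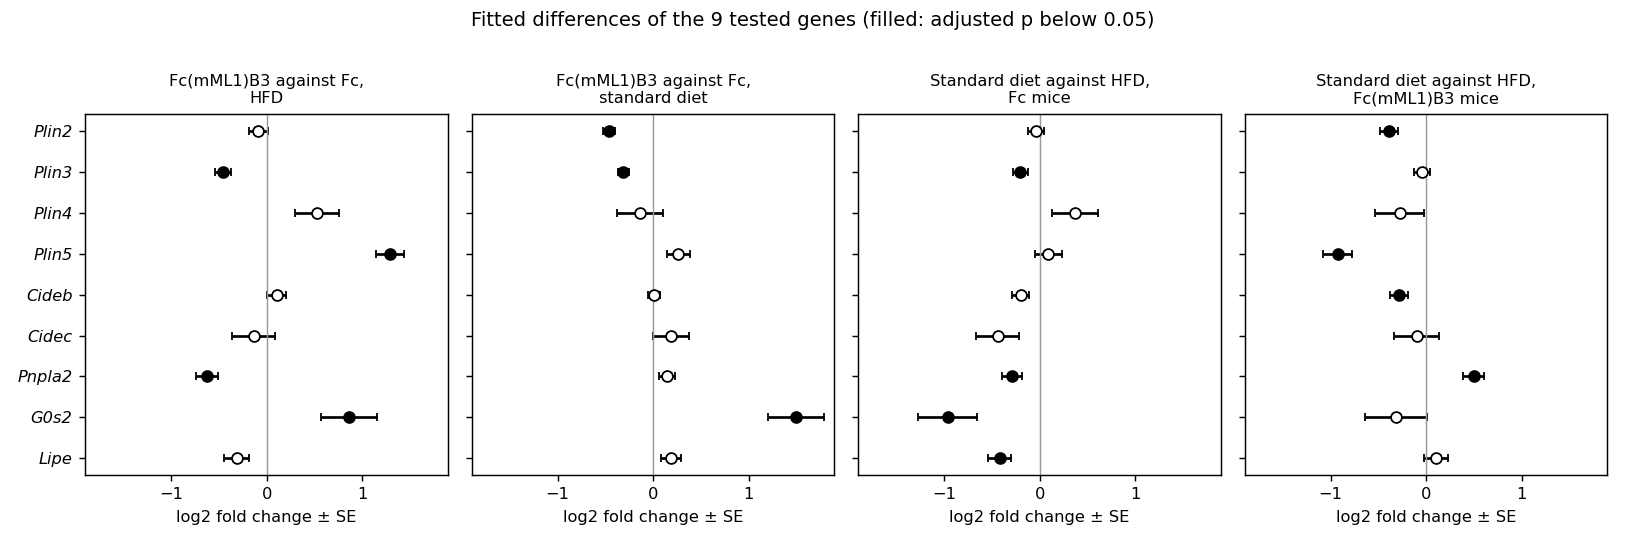
Fitted log2 difference ± SE of the 9 tested genes in 4 comparisons, with filled points where the adjusted p was under 0.05. In the comparisons of the proteins, Plin5 and Pnpla2 have filled points for the HFD and open ones for the standard diet.

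Whether the difference between Fc(mML1)B3 and Fc itself differed between the experiments was tested as an interaction over all 36 libraries. Here 3 of the 9 tested genes were called, where 9.06% of 14105 tested genes were called (4.66% higher, 4.4% lower), and Plin5 alone passed the first experiment's limits of the study, as did 1.92% of tested genes. For Plin5 the difference was smaller under the standard diet by -1.01 on the log2 scale (SE 0.21, adjusted p = 0.000827). For Pnpla2 it was 0.79 higher (SE 0.15, adjusted p = 0.000428), the HFD value being negative and the standard diet value close to 0. The Lipe value of 0.52 (SE 0.17) passed only narrowly (adjusted p = 0.0490) and was called in 8 of 36 leave-one-out fits, those without Fc replicates 7, 8 or 10 or Fc(mML1)B3 replicates 2 or 6 of the HFD, or without Fc replicates 4 or 5 or Fc(mML1)B3 replicate 5 of the standard diet. Over all 36 fits the value was 0.445 to 0.572 and the adjusted p 0.0236 to 0.101. The log2 difference of Plin2 was -0.09 under the HFD against -0.46 in the second experiment, and the interaction of -0.35 (SE 0.12) was not called (adjusted p = 0.0641), although it passed without Fc replicate 3 (-0.40, adjusted p = 0.0314), Fc(mML1)B3 replicate 1 (-0.38, adjusted p = 0.0363) or Fc(mML1)B3 replicate 5 (-0.41, adjusted p = 0.0115) of the HFD. Without the 2 HFD livers that stood apart, Plin5 (-1.09) and Pnpla2 (0.77) were called, Plin2 was called as well (-0.43, adjusted p = 0.00875) and Lipe was not (0.50, adjusted p = 0.0560). The differences of G0s2 (adjusted p = 0.447) and Plin3 (adjusted p = 0.479) between the experiments were not called. The difference of Arntl between Fc(mML1)B3 and Fc also changed between the experiments, by -5.02 on the log2 scale, and the dosing schedules differed. Of 6 hepatocyte markers 1 had a called interaction (Hnf4a, -0.44), and 3 of the 6 had a positive value.

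The standard diet was compared with the HFD within each protein, and here a large part of all genes was called. Among the Fc mice 47.9% of 14105 tested genes were called (23.3% higher, 24.6% lower), and 4 of the 9 genes were called, all lower under the standard diet. G0s2 was lower by a log2 difference of -0.96 (SE 0.31, adjusted p = 0.0100), from a median of 62.0 to one of 34 CPM. Lipe differed by -0.42 (SE 0.12, adjusted p = 0.00354) and Pnpla2 by -0.29 (SE 0.10, adjusted p = 0.0207). Pnpla2 was no longer called without Fc replicate 2 of the HFD (-0.24, adjusted p = 0.0520) or Fc replicate 1 of the standard diet (-0.24, adjusted p = 0.0656). Plin3 differed by -0.20 (SE 0.08, adjusted p = 0.0326) and lost its call without Fc replicates 1, 7 or 9 of the HFD or 1, 4 or 9 of the standard diet, at -0.16 to -0.19. Plin2 (-0.04), Plin5 (0.09) and Plin4 (0.37) were not called. Cideb and Cidec were not called over all mice. Cideb was called without Fc replicates 6 (-0.22), 7 (-0.24) or 8 (-0.24) of the HFD or 2 (-0.24) of the standard diet, and Cidec without Fc replicate 6 of the HFD (-0.52). Without both HFD livers that stood apart 4 genes were again called, with Cideb (-0.23, adjusted p = 0.0144) in place of Plin3 (-0.16, adjusted p = 0.0769). Markers of other cell types were lower in the same comparison: 4 of 7 of macrophages, 3 of 5 of stellate cells (Acta2 by -1.37, Des by -0.44 and Colec11 by -0.38) and 1 of 4 of cholangiocytes (Epcam by -1.03). The summed stellate markers were 160 to 254.6 CPM under the HFD and 149.3 to 204.6 CPM under the standard diet, and the cholangiocyte markers 22.6 to 95.5 and 30.4 to 55.7 CPM. Higher under the standard diet were 1 of 4 endothelial markers (Kdr by 0.23) and 1 of 6 hepatocyte markers (Hnf4a by 0.61). Without both livers the hepatocyte marker Cyp2e1 was also called, lower by -0.41, and the counts of the macrophage, stellate, cholangiocyte and endothelial lists stayed at 4, 3, 1 and 1. The part of these cell types in the differences was not tested.

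Among the Fc(mML1)B3 mice 38.5% of tested genes were called (20.7% higher, 17.9% lower), and so were 4 of the 9 genes. By the limits the study used in the first experiment, 4.98% of tested genes passed in the Fc mice and 4% in the Fc(mML1)B3 mice, and none of the 9 did in either by edgeR with TMM, all their folds being under 2. With upper-quartile scaling in the same test, G0s2 in the Fc mice (-1.05, adjusted p = 0.00494) and Plin5 in the Fc(mML1)B3 mice (-1.01, adjusted p = 2.03e-06) passed that fold. Plin5 was lower under the standard diet (-0.92, SE 0.15, adjusted p = 8.01e-06), and no mouse of that group reached the lowest HFD value of 53.7 CPM. Plin2 was lower by -0.39 (SE 0.09, adjusted p = 0.000765) and Cideb by -0.28 (SE 0.09, adjusted p = 0.0170). Pnpla2 was higher (0.50, SE 0.11, adjusted p = 0.000431), and 5 of 7 standard diet mice lay above the highest of the HFD mice. Here 3 of 7 macrophage markers, 2 of 5 stellate cell markers (Acta2 by -2.11 and Colec11 by -0.29) and 2 of 4 cholangiocyte markers (Krt19 by -1.53 and Sox9 by -0.86) were lower, as was the 1 adipocyte marker that could be tested (Cfd by -1.66, adjusted p = 0.00308), and the endothelial marker Kdr was higher (0.30, adjusted p = 0.0076). Without the 2 HFD livers that stood apart Krt19 was lower by -0.82 (adjusted p = 0.0248), Acta2 by -1.52, Sox9 by -0.77 and Cfd by -1.77, and Kdr was higher by 0.26. The endothelial markers Clec4g (-0.28) and, at the threshold, Stab2 (-0.20) were then called lower too. The same 4 of the 9 genes were called, Plin5 at -0.97, Plin2 at -0.45, Cideb at -0.33 and Pnpla2 at 0.49. The stellate sums were 166.2 to 236.8 CPM under the HFD and 164 to 185.1 CPM under the standard diet, the cholangiocyte sums 29.5 to 165.9 and 18.7 to 43.6 CPM, and their part was again not tested.

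Genes that act beside these 10 were counted in 3 lists. Of 4 direct partners of ATGL and droplet lipolysis, Faf2, an adaptor for protein removal at the droplet, rose under the HFD (0.21, adjusted p = 0.0143). Under the standard diet Pnpla3, a droplet protein whose human form carries a well known variant for fatty liver, rose (1.52, SE 0.38, adjusted p = 0.00972). The activator Abhd5 was not called in either experiment (0.14 and 0.11), nor was Hilpda, another ATGL inhibitor (0.20 and 0.22). The shares called in all genes were those given above, 14.8% and 16.1%.

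Of 14 listed genes for droplet formation and coating, 13 were tested, and those called were all higher, with 2 in the first experiment and 5 in the second. Of all tested genes 14.8% and 16.1% were called, so the count under the HFD is near the share over all genes. Under the HFD they were Fitm2, which acts in droplet budding (0.44, adjusted p = 0.0411), and the droplet dehydrogenase Hsd17b11 (0.30, adjusted p = 0.0246). Fc replicate 7 was the lowest HFD Fc liver for both, at 8.50 CPM for Fitm2 (median 17.6) and 152.5 CPM for Hsd17b11 (median 211.1). No fit without it is given for this list. Under the standard diet the largest were Pcyt1a, the rate-limiting enzyme of phosphatidylcholine synthesis (0.33, adjusted p = 0.000407), and Mettl7b (0.31, adjusted p = 0.000751). Bscl2, the seipin of droplet assembly, was 0.15 higher there (adjusted p = 0.0157). Pcyt1a was the only gene of this list with a called interaction (0.36, adjusted p = 0.0176), where 9.06% of all tested genes were called.

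Of 13 other lipid hydrolases, 3 were higher and 0 lower under the HFD by edgeR (3 lower at an unadjusted p under 0.05, 0 called lower by DESeq2 or limma-voom), and 4 were higher and 2 lower under the standard diet. Of all tested genes 8.14% were higher and 6.68% lower under the HFD, and 8.56% and 7.55% under the standard diet. The liver carboxylesterase Ces1d, a triglyceride hydrolase, rose in both (0.96, adjusted p = 0.000227, and 0.80, adjusted p = 2.49e-05), although it belongs to a family of near copies whose reads may be assigned uncertainly. Mgll, which cleaves monoglyceride at the end of lipolysis, rose under the HFD (0.59, adjusted p = 0.00125). It was not called under the standard diet (0.21, adjusted p = 0.106). Also called higher under the HFD was Ces1g (0.41, adjusted p = 0.0475). Fc replicate 7 was the lowest HFD Fc liver for Ces1d (374.6 CPM, median 647.7), Mgll (156.3, median 218.8) and Ces1g (149.3, median 354). No fit without it is given for this list. Lpl, the lipoprotein lipase, fell under the standard diet (-0.76, adjusted p = 1.06e-05), as did Pnpla7, a lysophospholipase (-0.27, adjusted p = 0.000354).

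Between the diets Hilpda was lower under the standard diet in both the Fc mice (-0.69, adjusted p = 7.74e-05) and the Fc(mML1)B3 mice (-0.66, adjusted p = 0.000381). Tmem159, which encodes the seipin partner promethin, was likewise lower in both (-0.82, adjusted p = 0.000458, and -0.56, adjusted p = 0.0271). The hepatic lipase Lipc was higher in both (0.54, adjusted p = 0.000608, and 0.34, adjusted p = 0.0422). Fc replicate 7 of the HFD was the lowest of its group for Lipc (36.3 CPM, median 97.3), and no fit without it is given. Pnpla3 was lower among the Fc mice (-1.07, adjusted p = 0.0403) and was not called among the Fc(mML1)B3 mice (0.33, adjusted p = 0.568).

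Within groups, after the group mean was taken from each log2 CPM, the genes varied together only moderately. These correlations are descriptions over 36 libraries that differ in depth and number series, and both values of a point come from the same library. The highest Pearson r among the 9 genes was 0.50, between the lipases Pnpla2 and Lipe, with 0.46 to 0.70 inside the single groups. The neighbours Plin4 and Plin5 followed at 0.44, but the value ran from 0.05 in the HFD Fc mice to 0.95 in the standard diet Fc mice. Plin3 and G0s2 had the lowest value, -0.28, with opposite signs inside the groups. It was 0.19 and 0.50 in the Fc mice of the HFD and the standard diet, and -0.56 and -0.70 in the Fc(mML1)B3 mice.

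Among 14104 other genes, those most like Plin2 by this measure were Crat (r = 0.73), which encodes carnitine acetyltransferase, and Cpt2 (0.73), an enzyme of long-chain fatty acid import into mitochondria, then the peroxisomal membrane gene Pxmp4 (0.70). The most similar to Plin5 were Baiap2l1 (0.74), the phosphatase gene Dusp1 (0.71) and Cbr1 (0.70). For Cidec they were the glypican Gpc1 (0.72), Dcbld1 (0.62) and the apolipoprotein gene Apoa4 (0.61).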

How the data were processed

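Bulk RNA-seq of liver was measured in 36 mice. Per the file headers, the deposited files hold raw counts per gene, made by the authors with featureCounts (Subread 2.0.3) on mm10 with properly paired ends, without strand, each end counted as a read. Multi-mapping reads and reads shared by overlapping genes were not counted, which can lower Cideb (855 exonic bases shared with Nop9), Lipe (809 with 4732471J01Rik) and Bscl2 (398 with Gng3). The submitters' notes also name fastp, Bowtie2 2.4.5 and STAR 2.7.10a. Groups came from sample titles.

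Counts were tested with edgeR 4.0.16 (R 4.3.3): TMM, filterByExpr and the quasi-likelihood F-test, with Benjamini-Hochberg adjustment over all tested genes. Fc(mML1)B3 was compared with Fc in each experiment from that experiment's libraries, and the interaction and the diet comparisons were fitted on all 36. The 10 genes, the lists and the comparisons were chosen with earlier results of these data known, and the motifs after the values were seen. Besides the 10 genes, the text names Abhd5, Hilpda, Pnpla3, Bscl2 and Mgll and, from the lists, up to 3 genes with the largest called difference in each direction, others having been picked after their values were seen. The mice are separate animals, so the p-values measure the spread between mice. Alternatives were DESeq2 1.42.0, limma-voom (limma 3.58.1), upper-quartile scaling, no filter, the study's thresholds, a replicate block, a clock covariate, a fit of the compared groups only, the number series of the libraries and leaving out each mouse. Leaving out both HFD livers that stood apart and levels over unshared exonic bases were added after seeing the data. Scripts were tested on simulated data. No protein sequences were used here.

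Depth was 14949035 to 28466853 counts per library. No pair of libraries of a group agreed within sampling noise (147 pairs, lowest chi-square per degree of freedom 6.31).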

Additional observations from a re-analysis of the deposited data

Results flagged for a closer look

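In the HFD Fc group, G0s2 in replicate 7 stood apart at 145.5 CPM, the other 9 mice lying between 43.9 and 91.1 CPM. It was the only one of 40 combinations of gene and group that stood out by Dixon's test, where chance gives about 1 in 20. The same liver was the lowest of its group for Cyp2e1, Lipc, Fitm1 and Ces3a and the highest for Lpl and Cd68. Without it and HFD Fc(mML1)B3 replicate 5, the G0s2 difference under the HFD was 1.08 (adjusted p = 0.0115, edgeR).

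The difference between Fc(mML1)B3 and Fc changed between the experiments by edgeR's interaction test for Plin5 (-1.01 on the log2 scale), Pnpla2 (0.79) and Lipe (0.52). Plin5 rose under the HFD in 10 of 10 mice relative to the highest Fc mouse, and its standard diet difference was not called. Pnpla2 fell under the HFD in 9 of 10 mice relative to the lowest Fc mouse and was not called under the standard diet. The Lipe value stayed between 0.445 and 0.572 in 36 fits that each left out a mouse, and its call held in 8 of them. Without both HFD livers that stood apart it was 0.50 and not called (adjusted p = 0.0560).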

How the results depend on the processing

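The number of the 10 genes called moved with the thresholds and the covariates. The study's thresholds left 1 under the HFD (Plin5), 1 under the standard diet (G0s2, also with the adjusted p of 0.1 and fold of 2 that were added after seeing the data, where 82 genes passed in all), 1 for the interaction (Plin5) and 0 for either diet comparison, where they called 702 and 564 genes in all. The clock covariate left 0 under the HFD, with Pnpla2 at 0.41 and Lipe at 0.33 reversed, Plin5 at 0.75, G0s2 at 0.02 and Plin2 at -0.73 each moved by over 1.5 times, Plin4 likewise at 0.95, and Plin3 at -0.49 against -0.46, and the Fc(mML1)B3 libraries of replicates 1 to 4 alone left 2. Leaving out 1 mouse gave 3 to 5 calls under the HFD, 3 to 4 under the standard diet, 2 to 3 for the interaction, 2 to 6 for the diet among Fc mice and 4 among Fc(mML1)B3 mice. Leaving out both livers that stood apart, an alternative added after seeing the data, gave 4, 3, 4 and 4 under the HFD, for the interaction and for the diet in Fc and in Fc(mML1)B3 mice. For G0s2 under the HFD the adjusted p was 0.0520 with DESeq2, 0.0593 with upper-quartile scaling and 0.0538 without the filter. The Plin2 interaction passed with DESeq2 (adjusted p = 0.0317) and limma-voom (0.0213), and the Lipe interaction did not pass without the filter (0.0780). With limma-voom Lipe was called lower under the HFD (-0.36, adjusted p = 0.0370). In the diet comparison among Fc mice, upper-quartile scaling added Cideb (-0.28) and Cidec (-0.53), and limma-voom added Cideb (-0.19).

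Only values near 0 or under the clock covariate turned sign: Cideb under the standard diet with upper-quartile scaling (-0.0060), limma-voom (-0.0072), the clock covariate (-0.0194), the single number series (-0.0188) and leaving out 1 mouse (-0.0292 to 0.0438), Cidec under the HFD with limma-voom (0.0836), replicates 1 to 4 (0.10), without both livers that stood apart (0.0093) and leaving out 1 mouse (-0.21 to 0.0471), Plin3 among Fc(mML1)B3 mice between diets with limma-voom (0.0059), Plin2 between diets among Fc mice (-0.0679 to 0.0026 leaving out 1 mouse) and Cidec among Fc(mML1)B3 mice (-0.22 to 0.0157 leaving out 1 mouse). The cause was not tested.

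The replicate numbers did not pair the mice: correlations of same-numbered deviations were over 0.1 in 1 of 10 pairs under the HFD and 0 of 7 under the standard diet, and 0 mice correlated best with their own number there. With the replicate block 3 of the 10 genes were called under the HFD, 4 under the standard diet (Plin5 added, 0.28, adjusted p = 0.0305), 2 for the interaction and 3 in either diet comparison, G0s2 under the HFD (0.161), the Lipe interaction (0.0959), Plin3 (0.0527) and Cideb (0.0604) losing their calls. Over all genes, 1972 were called under the HFD, against 3039 with limma-voom, 1294 with the block, 705 with replicates 1 to 4 alone and 0 with the clock covariate. Under the standard diet 2186 were called, against 1296 with the block and 942 in the single number series, and for the interaction 1278 against 2026 with limma-voom.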
